A study of Mus musculus with 860 samples.

Results

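The Wnt pathway was followed at its surface and its nuclear end in single cells of the mouse aorta-gonad-mesonephros (AGM) region, where the first hematopoietic stem cells arise. The members were set by a rule on gene symbols. The rule uses no measured value, but it was chosen with earlier results of these data known. It took the protein-coding genes named Wnt, Fzd, Dkk or Sfrp with a number. Lrp5, Lrp6, Frzb, Wif1, Axin2, Lef1, Tcf7, Ctnnb1, Rspo1 to Rspo4 and Notum were added by name. This rule found 50 of the 46078 genes in the count table. They comprised 19 Wnt ligands, 10 Frizzled receptors, 2 co-receptors, 4 R-spondin agonists, 11 secreted antagonists, 3 nuclear or cytoplasmic effectors and 1 feedback gene.

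Cells were taken at embryonic day E10.5 and E11.5 from untreated embryos that all carried the Gfi1:tomato reporter, on a strain labelled CD1/Gf1+, and were index sorted by 3 gates. GFI1+ HE (hemogenic endothelium, the endothelium that gives rise to blood) was CD31+cKIT-GFI1+, GFI1+ IAHC (intra-aortic hematopoietic clusters) was CD31+cKIT+GFI1+, and GFI1- IAHC was CD31+cKIT+GFI1-. AGM regions of several embryos were pooled before sorting, so no cell could be traced to an animal, and each group counted as 1 sample without a test. The labels also gave an age of 6 to 8 weeks beside every embryonic stage and did not say whose age it was. The labels placed the cells in 4 batches, GL53, GL58, GL69 and GL78, without saying what a batch stood for. Of the kept cells, E10.5 GFI1+ HE made up 14.1% (18 cells in GL58 and 91 in GL78), E10.5 GFI1+ IAHC 15% (29 in GL69 and 87 in GL78) and E10.5 GFI1- IAHC 3 cells. E11.5 GFI1+ HE made up 22.2% (19 in GL58, 40 in GL78 and the rest in GL53), E11.5 GFI1+ IAHC 240 cells (30 in GL58, 89 in GL78 and the rest in GL53) and E11.5 GFI1- IAHC 17.4% (91 in GL53 and 44 in GL78).

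Of 860 sequenced cells the authors kept 775, with 134284 to 2296823 counts per cell and a median of 727732, and assigned them to 11 Louvain clusters. No plate held cells of both stages, so that stage and sort plate cannot be told apart. The labelled endothelium was present in every sorted group with at least 3 cells per batch, with 6 of 6 endothelial markers at 10 CPM (counts scaled to a common library total of 1000000) or more and a summed level of 2163 to 7099 CPM. Cluster 4 (76 cells, of which 27 were E10.5 and 42 were E11.5 GFI1+ HE) held the highest level of 7 arterial markers, at 5633 CPM against 2.702 to 1017 CPM elsewhere. Cluster 2 (of whose cells 42 were E10.5 and 39 were E11.5 GFI1+ IAHC) held 7 of 7 hematopoietic markers and a sum of 2079 CPM, against 51.1 CPM in cluster 4, where Ptprc was at 0. Cluster 6 (36 cells) held 8 of 8 mesenchymal and perivascular markers at 5204 CPM and only 21.5 CPM of endothelial markers, and 32 of its cells had been sorted as E11.5 GFI1- IAHC in batch GL53. Clusters 0, 1, 3 and 5 held 6 endothelial markers at 4113 to 5737 CPM. Of the smaller clusters, number 7 led in lymphatic and venous markers, number 8 in germ cell markers, number 9 in megakaryocyte markers and number 10 in macrophage markers.

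Wnt proteins are secreted, lipid-modified ligands that bind Frizzled receptors. With the co-receptors Lrp5 or Lrp6 they stabilise beta-catenin, encoded by Ctnnb1, which acts in the nucleus through Tcf7, Lef1 and related factors, and Axin2 is a widely used target that feeds back to dampen the signal. Some ligands act through Frizzled without beta-catenin, in the planar cell polarity branch. R-spondins potentiate the signal by removing the ubiquitin ligases Rnf43 and Znrf3 that clear Frizzled. Dkk1, Dkk2 and Dkk4 bind Lrp5 and Lrp6, while Dkk3 is counted with the antagonists by its family name only. Sfrp proteins, Frzb and Wif1 bind Wnt ligands, and Notum cleaves the lipid of these ligands. In the AGM the pathway is known for its part in the passage from endothelium to blood.

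Levels were summed counts of a group or cluster, scaled to CPM, and intervals (exact Poisson for levels, exact Clopper-Pearson for shares of cells, both 95%) covered counting error only. Where no cell had a read, the share that a count of 0 allows was taken as 3 cells of the total. By this measure 31 of the 50 members reached 10 CPM in a cluster or in a group within a batch, 12 reached 1 to 10 CPM, 5 had reads below 1 CPM, and Wnt3a and Wnt7a had no read in any kept cell. The 31 comprised 5 of 19 ligands, 10 of 10 Frizzled receptors, both co-receptors, 3 of 4 R-spondins, 7 of 11 antagonists, the 3 effectors and Axin2. Every Frizzled gene thus reached 10 CPM in at least 1 cluster or group, whereas most ligand genes did not. Reaching it in 1 place does not make a gene broad. Among the Frizzled genes the share of kept cells with a read ran from 7.87% for Fzd9 to 64.3% for Fzd4.

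The members did not spread evenly over the clusters. Cluster 6 held the highest level of 16 of the 31 members (18.3% of the 13080 genes at 10 CPM or more in a cluster peaked there), and cluster 4 that of 5 members, Ctnnb1, Dkk1, Dkk2, Fzd6 and Wnt11 (9.79% of genes). Cluster 8 led for 4 members, Fzd5, Fzd10, Lef1 and Notum (19.8% of genes), and cluster 0 for Fzd4 and Lrp5 (2.06% of genes). The last 4 members were Fzd9 and Tcf7 in cluster 2 (6.38% of genes), and Fzd8 and Lrp6 in cluster 10 (18.7% of genes). The clusters were built from the expression of these cells, so all contrasts between clusters are descriptions.

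**Figure D1:**
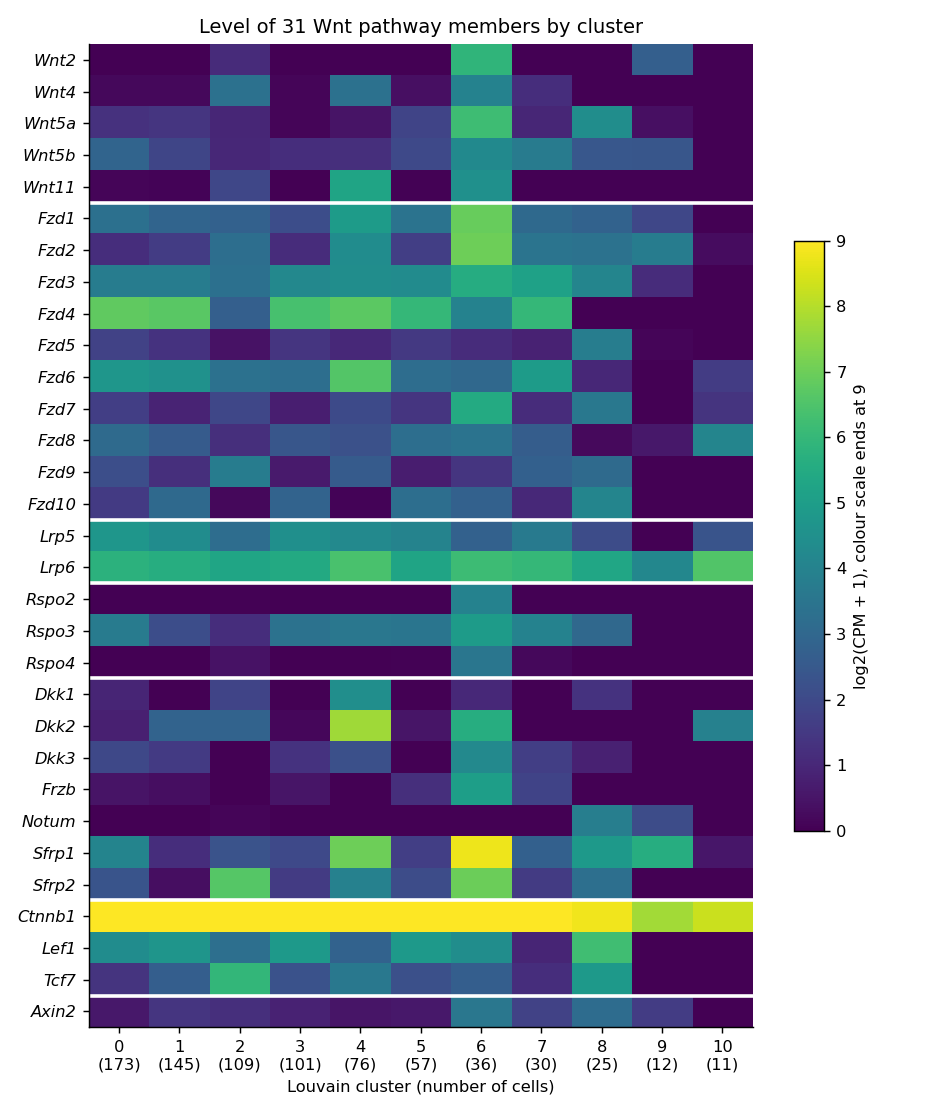
Level of the 31 members that reached 10 CPM, in rows by role, in the 11 Louvain clusters (columns), as log2 of CPM plus 1, with the colour scale ending at 9. Cluster 4 carries Dkk2, Fzd6 and Wnt11, cluster 2 carries Sfrp2 and Tcf7, and cluster 6 carries 16 of the highest values.

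The promoters of 3 members whose reads concentrated in cluster 4 or cluster 2 are shown by the 250 bases before their start site, taken from RefSeq on GRCm38.p6, because Dkk2 and Wnt11 were read in the same arterial marker-rich cells and Sfrp2 in the hematopoietic ones. Capitals mark a TCF/LEF motif, searched as CTTTGAT or, on the other strand, ATCAAAG. All 3 genes lie on the plus strand, and none of the windows overlaps an exon.
Dkk2, chr3:132085042-132085291: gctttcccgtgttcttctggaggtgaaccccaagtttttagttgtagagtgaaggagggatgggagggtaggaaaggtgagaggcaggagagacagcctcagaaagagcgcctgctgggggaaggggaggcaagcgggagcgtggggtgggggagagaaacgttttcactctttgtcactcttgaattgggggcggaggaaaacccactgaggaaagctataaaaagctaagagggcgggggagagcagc
Wnt11, chr7:98834862-98835111: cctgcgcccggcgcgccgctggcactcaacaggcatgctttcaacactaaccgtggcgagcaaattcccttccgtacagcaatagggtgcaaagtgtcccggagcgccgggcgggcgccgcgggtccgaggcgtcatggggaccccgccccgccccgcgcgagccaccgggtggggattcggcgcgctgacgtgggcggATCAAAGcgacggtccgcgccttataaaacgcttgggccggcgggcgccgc
Sfrp2, chr3:83766071-83766320: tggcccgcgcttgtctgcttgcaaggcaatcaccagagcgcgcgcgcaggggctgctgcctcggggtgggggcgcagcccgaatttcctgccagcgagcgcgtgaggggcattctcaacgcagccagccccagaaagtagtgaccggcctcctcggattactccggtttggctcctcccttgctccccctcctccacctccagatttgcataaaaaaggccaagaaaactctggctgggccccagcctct
Of the 33 members with such a window, only Wnt11 held the TCF/LEF letters, beginning 51 bases before the start, and 3.21% of 32851 windows over all genes held them. The RBPJ motif of the Notch pathway, TGGGAA or TTCCCA, stood in 3 of the 33 windows (Frzb, Wnt3 and Wnt9a) and in 21.6% of all windows. These matches describe letters and not binding.

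Among the ligands, Wnt11 had its highest level in cluster 4. Wnt11, a ligand known mainly for signals that do not use beta-catenin (chr7:98835112-98855195, plus strand, mm10), was read at 37.5 CPM in cluster 4 and 21.9 CPM in cluster 6. It stood at 2.76 CPM in cluster 2 and at or under 0.0966 CPM in every other cluster. Reads came from 24 of 76 cells of cluster 4 (31.6%), whose median was 82.6 CPM, and from 12 of 36 cells of cluster 6 (33.3%). Within the batches cluster 4 had 44.03 CPM in GL53 and 38.6 CPM in GL78, so the level differed little between them. By stage it was 41.5 CPM in 11 of 29 cells at E10.5 and 34.4 CPM in 13 of 47 cells at E11.5. An exon of Wnt11 overlaps a pseudogene on the other strand, and strand was not stated for the counting.

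The other 4 ligands above 10 CPM were led by cluster 6. Wnt5a, a ligand best known outside the beta-catenin branch, stood at 72.6 CPM in 21 of 36 cells of cluster 6 and 20.5 CPM in 11 of 25 cells of cluster 8, and at or under 2.59 CPM elsewhere. Wnt2 stood at 58.5 CPM in cluster 6 but came from 4 cells, and 1 of them held 56.1% of the reads. Wnt5b had 18.5 CPM in cluster 6 and 12.4 CPM in cluster 7. Wnt4 was read at 9.33 CPM in cluster 2, at 9.28 CPM in cluster 4 and at 14.7 CPM in cluster 6. In cluster 2 the Wnt4 reads came from 9 of 53 cells at E10.5, at 16.7 CPM, and from 0 of 56 cells at E11.5, and 1 cell held 63.9% of them. Of these 9 cells 8 also held Sfrp2 reads, as did 40 of the 53 E10.5 cells of the cluster.

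The remaining ligands were scarce. The highest values among the 9 ligands of 1 to 10 CPM were 5.07 CPM for Wnt10b in a group within a batch, 4.34 CPM for Wnt3 and 3.05 CPM for Wnt8a in cluster 8, and 3.50 CPM for Wnt16 in cluster 6. Rspo1 (8.95 CPM) and Wif1 (3.86 CPM) of the other roles also peaked in cluster 6. Members with reads below 1 CPM everywhere were Wnt1, Wnt8b, Wnt10a, Sfrp4 and Dkk4. At least 1 Wnt read of any kind was found in 44.7% of cells of cluster 4, 83.3% of cluster 6, 72% of cluster 8 and 27.5% of cluster 2, against 9.90% to 22% of clusters 0, 1, 3 and 5. At a common depth of 100000 counts per cell these shares were 40.8%, 80.6%, 60% and 23.9%, against 5.94% to 13.9%, so that the order was kept for these clusters.

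Frizzled receptors divided the clusters. Fzd4, the endothelial receptor known from retinal vessels (chr7:89404355-89413134), was high in all clusters rich in endothelial markers, at 111.7 CPM in cluster 0, 102.9 CPM in cluster 1, 82.1 CPM in cluster 3, 62.7 CPM in cluster 5, 62.7 CPM in cluster 7 and 106.2 CPM in cluster 4. It was 5.54 CPM in cluster 2, where 18 cells (16.5%) had a read against 55 of 76 (72.4%) in cluster 4. No Fzd4 read was found in clusters 8, 9 and 10. Endothelial markers summed to 763 CPM in cluster 2 and 7249.7 CPM in cluster 4. Cluster 6, with 21.5 CPM of them, had 14.99 CPM of Fzd4 in 11 of 36 cells.

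Fzd6, a receptor of the planar cell polarity branch (chr15:39006034-39038188), had a narrower peak, at 96.4 CPM in cluster 4 against 29.4 CPM in cluster 7, 25.5 CPM in cluster 0, 22.7 CPM in cluster 1 and 9.28 CPM in cluster 2. It was read in 65 of 76 cells of cluster 4 (85.5%) with a median of 97.7 CPM, and it was the receptor detected in most of those cells. Both Fzd4 and Fzd6 were found in 48 of the 76 cells. Per kilobase of exon, cluster 4 held 20 CPM of Fzd6, 15.8 CPM of Fzd4, 7.07 CPM of Fzd1 and 5.45 CPM of Fzd2, so that Fzd6 and Fzd4 led among its receptors. A short stretch of Fzd6 is shared with a transcript on the other strand.

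Cluster 6 held a different set of receptors. Fzd2 was read in 36 of 36 of its cells at 127.1 CPM and Fzd1 in 33 of 36 at 120.01 CPM, followed by Fzd3 at 46.1 CPM and Fzd7 at 44.1 CPM, while Fzd6 was at 7.22 CPM. Smaller peaks were found for Fzd10 (16 CPM) and Fzd5 (13.1 CPM) in cluster 8, for Fzd8 (16.2 CPM from 2 cells) in cluster 10 and for Fzd9 (12.7 CPM in 20 cells, 18.3%) in cluster 2. Fzd9 was the Frizzled gene with the highest level per kilobase in cluster 2, at 5.54 CPM, against 2.36 CPM for Fzd2 and 0.82 CPM for Fzd4.

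**Figure D2:**
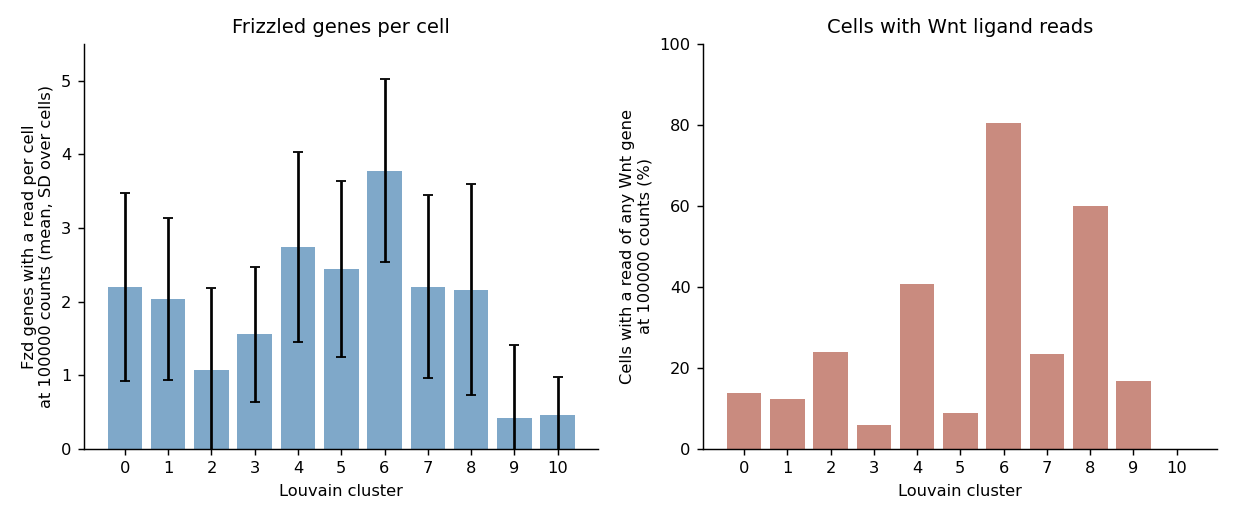
Left, number of Frizzled genes read per cell in each Louvain cluster after thinning to 100000 counts (bars give the mean, error lines the SD over cells). Right, percent of cells with a read of any Wnt ligand at that depth. The means run from 1.06 in cluster 2 to 2.74 in cluster 4 and 3.78 in cluster 6 among the clusters of more than 30 cells.

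Counted per cell at 100000 counts, cluster 2 held 1.06 ± 1.12 Frizzled genes (SD over cells), cluster 4 held 2.74 ± 1.29, cluster 6 held 3.78 ± 1.24 and clusters 0, 1, 3 and 5 held 1.55 to 2.44. No Frizzled read at all was found in 26.6% of cells of cluster 2, at full depth, and in none of the 76 and 36 cells of clusters 4 and 6, which allows shares of up to 3.95% and 8.33%. The co-receptors were less divided. Lrp6 ran from 16.9 to 93.7 CPM over the clusters, with 83.6 CPM in cluster 4 and 38.1 CPM in cluster 2. Lrp5 stood at 15.3 to 25.3 CPM in clusters 0, 1, 3 and 5, at 17.7 CPM in cluster 4 and at 8.37 CPM in cluster 2.

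Rspo3 was the R-spondin with the most reads, found in 23.7% of kept cells. It was read at 1 CPM or more in every cluster from 0 to 8. Its level was 29.6 CPM in cluster 6, 14.7 CPM in cluster 7, 12.5 CPM in cluster 0 and 10.96 CPM in cluster 4, but 1.25 CPM in cluster 2. Rspo1, Rspo2 and Rspo4 were read in few cells and mainly outside the endothelium. Rspo2 reached 14.7 CPM in 10 of 36 cells of cluster 6 and was at or under 0.025 CPM in all other clusters. Rspo4 reached 10.49 CPM in cluster 6 from 1 cell, so it rests on that cell.

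The secreted antagonists showed the clearest division. Dkk2, a Dickkopf protein that binds Lrp5 and Lrp6 (chr3:132085292-132180304, promoter above), was read at 209.9 CPM in cluster 4, 48.1 CPM in cluster 6, 14.4 CPM in cluster 10 from 1 cell, and at or under 6.38 CPM in each of the other clusters. Reads were found in 63 of 76 cells of cluster 4 (82.9%, 72.5 to 90.6), and at 100000 counts per cell the share was 78.5%. Among the cells with reads the median was 175.02 CPM and the highest 1561 CPM. Per kilobase Dkk2 stood at 56.7 CPM in cluster 4, the highest of the secreted antagonists there, before Sfrp1 at 29.3 CPM, Dkk1 at 8.52 CPM and Sfrp2 at 6.68 CPM.

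Sfrp1, a soluble decoy with a Frizzled-like domain (chr8:23411502-23449632), was read at 434 CPM in cluster 6, 127.96 CPM in cluster 4, 48.2 CPM in cluster 9 from 1 cell, 27.3 CPM in cluster 8 and 15.6 CPM in cluster 0. In cluster 4 its reads came from 37 of 76 cells (48.7%), with a median of 182.5 CPM in those cells. Of these 37 cells 33 also held Dkk2 reads (89.2%), as did 54 of the 65 cells with Fzd6 (83.1%) and 21 of the 24 with Wnt11 (87.5%), beside 82.9% of all cells of the cluster. Dkk1, the founding member of its family, stood at 20.7 CPM in cluster 4 from 6 cells, all of which held Dkk2. In 28 of the 76 cells Dkk2, Sfrp1 and Fzd6 were read together.

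Sfrp2, a close relative of Sfrp1 (chr3:83766321-83774316), had another distribution. It stood at 124.2 CPM in cluster 6 and 98.4 CPM in cluster 2, against 14.4 CPM in cluster 4 and at or under 8.79 CPM in all others. In cluster 2 the reads came from 46 cells (42.2%), with a median of 133.7 CPM and an interquartile range of 73.8 to 247.4 CPM in those cells. Per kilobase it was the highest of the antagonists in cluster 2, at 45.7 CPM, where Dkk2 had 1.72 CPM and Sfrp1 0.90 CPM. Frzb (32.1 CPM) and Dkk3 (17.8 CPM) peaked in cluster 6. Notum was read at 13.4 CPM in cluster 8, in 10 of 25 cells, and otherwise in 1 cell each of clusters 2 and 9. Notum and Sfrp2 overlap transcripts on the other strand.

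**Figure D3:**
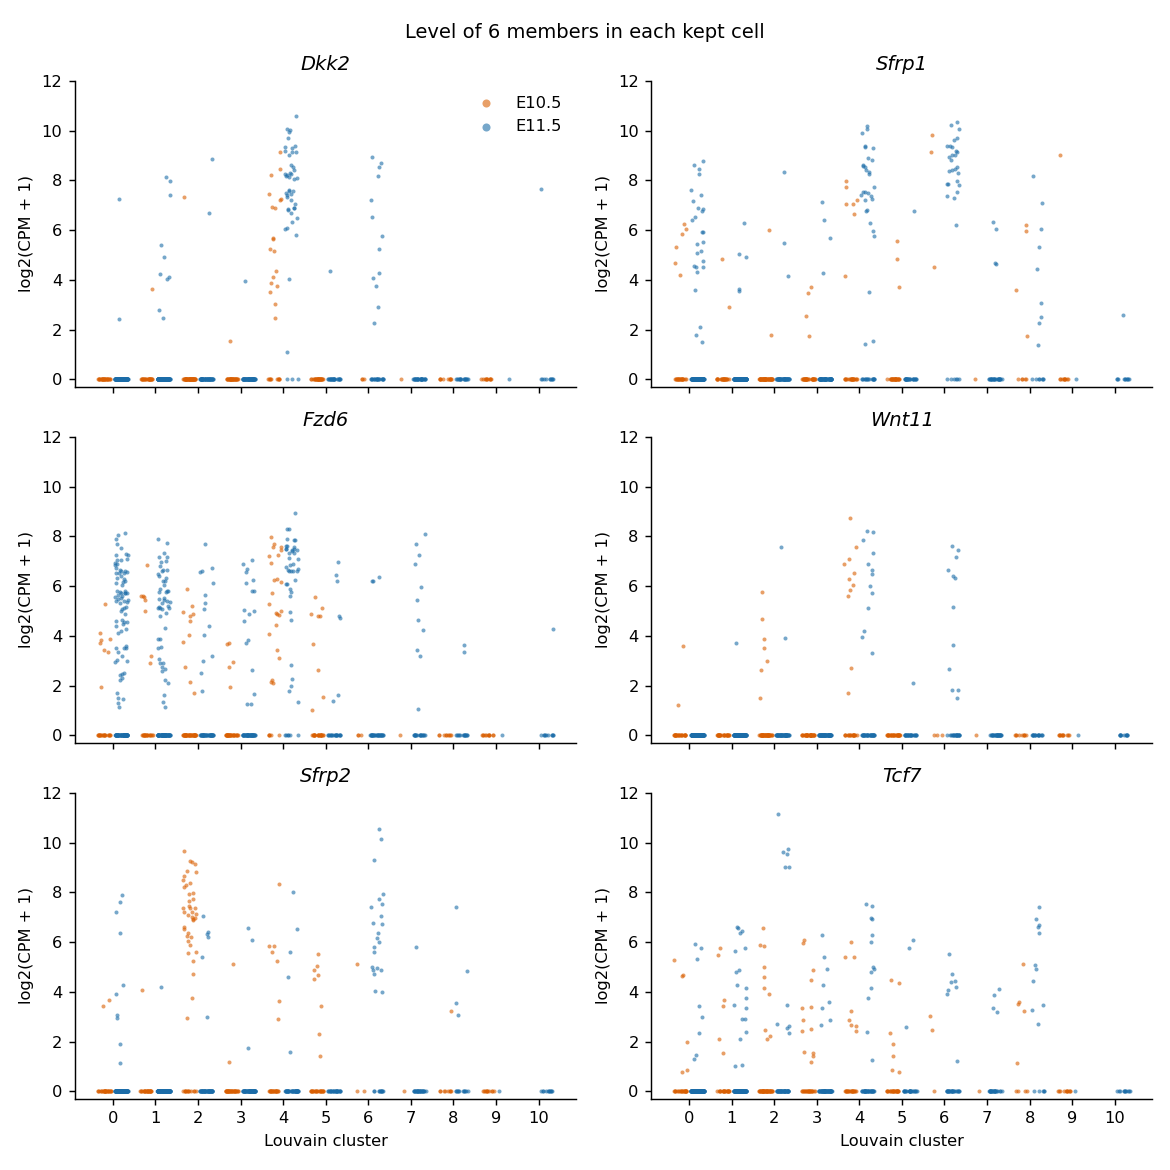
Level in each cell, as log2 of CPM plus 1, of 6 members by Louvain cluster, with points coloured by stage. Dkk2 and Fzd6 are spread over most cells of cluster 4, while Sfrp2 in cluster 2 is carried mainly by E10.5 cells and Tcf7 by a few cells of very high value.

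The nuclear effectors were unequally distributed. Ctnnb1, which encodes beta-catenin, was read in 770 of 775 cells and ranged from 213.1 CPM in cluster 9 to 1486 CPM in cluster 4, with 611 CPM in cluster 2 and 1144 to 1323 CPM in clusters 0, 1, 3 and 5. Lef1, a factor that pairs with beta-catenin, was at 73.7 CPM in cluster 8 and 19.8 to 27.6 CPM in clusters 0, 1, 3 and 5, but at 8.72 CPM in cluster 2 and 6.13 CPM in cluster 4. Tcf7 (chr11:52252371-52283014, minus strand) stood at 61.6 CPM in cluster 2, 27.8 CPM in cluster 8, 11.3 CPM in cluster 4 and at or under 5.45 CPM elsewhere. Its level in cluster 2 came from few cells: 21 cells had a read (19.3%), their median was 23.3 CPM, their upper quartile 517 CPM and the highest cell 2252 CPM, and that cell held 49.1% of the reads. Of these 21 cells 4 had a Lef1 read, as did 10 cells (9.17%) of the whole cluster.

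Axin2, the feedback target, was low throughout. It stood at 10.9 CPM in cluster 6, where 16 of 36 cells had a read, and at 8.15 CPM in cluster 8, where 12 of 25 did, and was at or under 2.38 CPM in every other cluster. In cluster 4 it was at 0.416 CPM in 3 of 76 cells and in cluster 2 at 1.33 CPM in 9 cells (8.26%). Ctnnb1, Lef1 and Axin2 share exon bases with transcripts of the other strand.

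Stage was compared within clusters 2 and 4 as a description, with stage and plate not separable. In cluster 2 Sfrp2 stood at 169.5 CPM at E10.5, in 40 of 53 cells (75.5%, 61.7 to 86.2), and at 7.75 CPM at E11.5, in 6 of 56 cells (10.7%, 4.03 to 21.9). Median depth was 848596 and 611006 counts per cell, and at 100000 counts the shares were 73.9% and 9.85%. Within batch GL78 and the GFI1+ IAHC gate, cluster 2 gave 168.4 CPM in 28 of 36 cells at E10.5 and 0 CPM in 0 of 15 cells at E11.5, which allows a share of up to 20%. The GL53 cells of that gate at E11.5 had 18.6 CPM in 6 of 22 cells. Over all gates the cells of cluster 2 in GL78 had 172.4 CPM in 35 of 45 cells at E10.5 and no read in 23 cells at E11.5. Tcf7 in cluster 2 went the other way in level but not in share, with 5.99 CPM in 10 of 53 cells at E10.5 and 132.5 CPM in 11 of 56 cells at E11.5. Within GL78 these values were 6.58 CPM in 8 of 45 cells and 58.8 CPM in 4 of 23 cells, with 60.9% of the latter reads in 1 cell.

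Within cluster 4, Dkk2 and Sfrp1 were higher at E11.5. Dkk2 was 69.8 CPM (66.5 to 73.2) in 19 of 29 cells at E10.5 and 320 CPM (313.6 to 326.2) in 44 of 47 cells at E11.5. Sfrp1 was 32.1 CPM in 7 of 29 cells and 203.2 CPM in 30 of 47 cells. Fzd6 was 72.2 CPM and 115.35 CPM, with 24 of 29 and 41 of 47 cells, and Fzd4 was nearly equal at 103.53 CPM and 108.2 CPM. Batch moved with stage, since the 33 cells of cluster 4 in GL53, with 365.7 CPM of Dkk2, were all from E11.5. Within GL78, which held both stages, Dkk2 was 65.5 CPM in 18 of 28 cells at E10.5 and 268.7 CPM in 9 of 10 cells at E11.5, and Sfrp1 was 33.8 CPM in 7 of 28 cells and 212.4 CPM in 6 of 10 cells, with 58% of the E11.5 Sfrp1 reads in 1 cell. Both differences thus had the same direction inside that batch. In GL58 the single E10.5 cell of cluster 4 had 147.9 CPM of Dkk2 and the 4 E11.5 cells had 146.1 CPM. Sfrp2 in cluster 4 was 21.7 CPM at E10.5 and 8.65 CPM at E11.5, with 65.7% of the E10.5 reads in 1 cell.

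For the comparisons between sorted groups, counts were summed per group within each batch with at least 10 cells on both sides. A gene was measured at 10 CPM or more in either side, as a mean over the batches, and was called where it differed at least 2-fold, with 1 CPM added to both levels, in the same direction in every batch. Within each stage the study sorted fewer pools of embryos than there were batches, so that batches shared embryos, n counts batches and not independent samples, and the SD over batches is not a spread between embryos. Log2 differences are given as mean ± SD over the batches. The share of all measured genes called in that direction stands beside each count of members for a comparison. It applies also to the other pathway genes of that comparison. Groups and clusters share cells between comparisons, so that the comparisons are not independent. A summed level combines the share of cells with reads and the level within them.

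**Figure D4:**
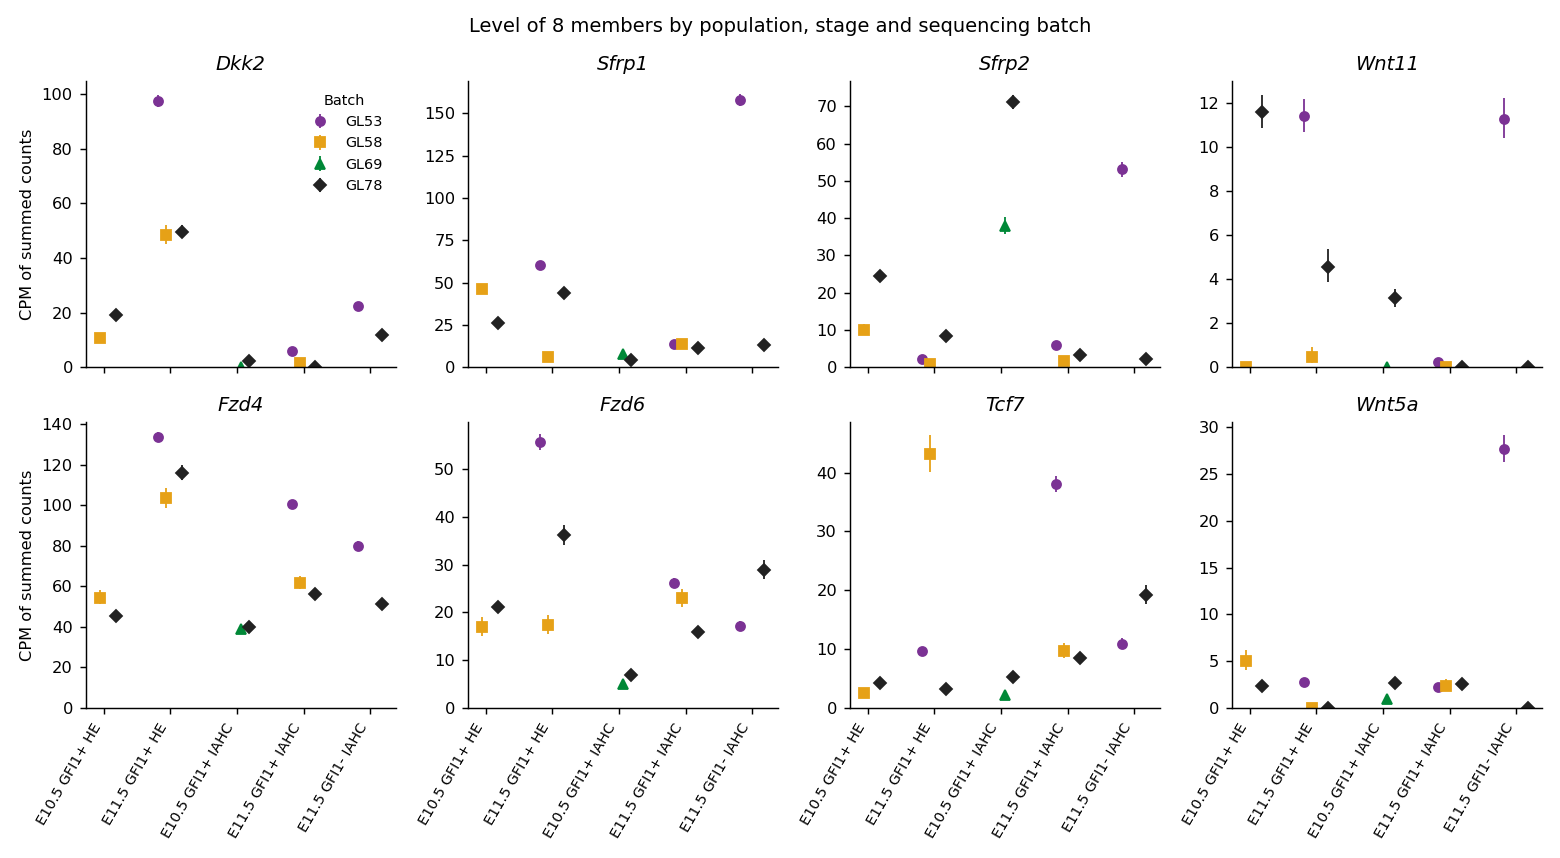
Level in CPM of 8 members in each sorted group and batch, with exact Poisson 95% intervals (counting error only). Dkk2 in the 3 E11.5 GFI1+ HE batches, at 48.5 to 97.5 CPM, is above all other groups and batches, and Sfrp2 is highest in E10.5 GFI1+ IAHC of GL78, at 71.2 CPM, and in E11.5 GFI1- IAHC of GL53.

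At E11.5 the hemogenic endothelium differed from the GFI1+ clusters by Dkk2. In GFI1+ HE Dkk2 was 97.5 CPM in GL53, 48.5 CPM in GL58 and 49.6 CPM in GL78, read in 35 (31%), 5 of 19 and 9 of 40 cells. In GFI1+ IAHC it was 6.13 CPM, 1.48 CPM and 0 CPM, read in 5 (4.13%), 1 of 30 and 0 of 89 cells. The levels by batch did not overlap between the groups, though how many of all measured genes separate in this way was not counted. The log2 difference was 4.59 ± 0.97 (n = 3 batches). Dkk2 was the only member of 11 measured that was called higher (0.917% of measured genes), and 0 of 11 were called lower (0.917% of genes). Of the Dkk2 reads of GFI1+ HE, 93% came from its 42 cells in cluster 4, which were 24.4% of its cells.

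Other members of the same comparison were not called. Sfrp1 was 60.5, 6.27 and 43.9 CPM in GFI1+ HE of GL53, GL58 and GL78 against 13.97, 13.7 and 11.3 CPM in GFI1+ IAHC, and the GL58 cells, of which 2 of 19 had a read, went against the other batches. Fzd6 was 55.6, 17.4 and 36.1 CPM against 26.1, 22.96 and 15.9 CPM, again with GL58 in the opposite direction. Without GL58 the count was 4 members higher (Dkk1, Dkk2, Fzd6 and Sfrp1) and 1 lower (Tcf7). Fzd4 was higher in all 3 batches, at 133.7, 103.53 and 115.98 CPM against 100.5, 61.8 and 56.3 CPM, with a log2 difference of 0.72 ± 0.31, below the 2-fold limit. Arterial markers moved with the same groups, with summed levels of 1310 to 2204 CPM in GFI1+ HE (6 or 7 of 7 at 10 CPM) and 369.01 to 477 CPM in GFI1+ IAHC (5 of 7, with Hey2 at 0 in GL53 and GL58), as did endothelial markers, at 5331 to 7099 CPM against 3948 to 4957 CPM (6 of 6 in each). Germ cell markers were at 0.355 to 1.49 CPM in GFI1+ HE (0 of 7, with Dppa3, Dazl and Tfap2c at 0 in every batch) and 171.8 to 1161 CPM in GFI1+ IAHC (3 to 7 of 7, none at 0), lymphatic and venous markers at 650 to 691 CPM and 901 to 1223 CPM (4 to 6 of 6, none at 0), and megakaryocyte markers in GL78 at 2805 CPM (7 of 7) and 214.6 CPM (5 of 7). Without clusters 6 to 10, among them those that led in germ cell and megakaryocyte markers, the Dkk2 difference was 4.48 and was called. Hematopoietic markers were at 102.4, 358.5 and 169.4 CPM in GFI1+ HE of GL53, GL58 and GL78 (4 to 6 of 7, none at 0). In GFI1+ IAHC they were at 444.5, 211.6 and 443.8 CPM (7 of 7), so GL58 went against the other batches here too. The part of the arterial, endothelial, hematopoietic and lymphatic and venous markers was not tested. The median log2 difference was 0.28 over the 11 members and -0.08 over all measured genes. Of 39 other pathway genes measured, 1 was called higher, Prickle2 of the planar cell polarity branch (2.47 ± 0.75).

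At E10.5 the same contrast had a single batch with enough cells, so a call needed 2-fold in 1 batch and not in 3. More members were called than at E11.5, as were more of all measured genes (5.47% against 0.917% higher). The counts of the 2 stages are therefore not like for like. In GL78, with 91 GFI1+ HE and 87 GFI1+ IAHC cells, Dkk2 was 19.3 CPM in 16 cells against 2.49 CPM in 5 cells. Sfrp1 was 26.3 CPM against 4.17 CPM, Fzd6 was 21.1 CPM against 6.87 CPM and Wnt11 was 11.6 CPM in 11 cells against 3.14 CPM in 8 cells. These 4 of 13 measured members were called higher in GFI1+ HE (5.47% of measured genes), with log2 differences of 2.54, 2.40, 1.49 and 1.61, and Sfrp2 was called lower (1.99% of genes), at 24.4 CPM against 71.2 CPM (-1.51). Without the cell with most reads of each gene, and with batches pooled, Wnt11 was under 10 CPM on both sides and was not called (1.45 and 1.69). With 1 batch the differences have no replicate check. The other pathway genes called were Vangl1 (1.57) and Daam1 (1.54), both of the planar cell polarity branch, of 37 measured.

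The reads of these members had few sources. Over both batches of E10.5 GFI1+ HE, cluster 4 held 24.8% of the cells, 100% of the Dkk2 reads, 96% of the Wnt11 reads and 76.3% of the Fzd6 reads. Sfrp1 was different: 51.8% of its reads lay in the 2 cells of cluster 6 and 27.5% in cluster 4. In E10.5 GFI1+ IAHC cluster 2 held 36.2% of the cells and 96.2% of the Sfrp2 reads. In the GL78 cells the summed arterial markers were 1833 CPM (7 of 7) in GFI1+ HE and 499 CPM (6 of 7) in GFI1+ IAHC, and the hematopoietic markers 255.7 CPM (3 of 7) and 628 CPM (7 of 7), with none at 0. Their part was not tested. Megakaryocyte markers were at 3500 CPM (7 of 7) in GFI1+ HE and 68.7 CPM (2 of 7, with Gp5 at 0) in GFI1+ IAHC. Without clusters 6 to 10 the same 4 members were called higher and Sfrp2 lower. Over the 13 members the median log2 difference was 0.23, and it was -0.02 over all measured genes.

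Between stages, GFI1+ HE held more Dkk2 and less Sfrp2 at E11.5. Dkk2 was 48.5 CPM at E11.5 and 10.6 CPM at E10.5 in GL58, where the E10.5 reads came from 1 of 18 cells, and 49.6 CPM against 19.3 CPM in GL78. It was the only one of 14 measured members called higher (2.48% of genes), with a log2 difference of 1.71 ± 0.55 (n = 2 batches). Sfrp2 was 0.83 CPM against 10.1 CPM in GL58 and 8.45 CPM against 24.4 CPM in GL78 and was called lower (-2.01 ± 0.84), as was Wnt2, so that 2 members were lower (1.99% of genes). Wnt2 was 0 CPM at E11.5 in both batches and 41.1 CPM and 6.01 CPM at E10.5. Against a floor of 3 counts per batch the summed levels were at least 231.8-fold and 64.9-fold lower. These bounds cover counting error only and not the spread between cells, and the E10.5 reads lay in few cells.

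Several of these stage values rest on single cells. The Wnt2 reads of E10.5 GFI1+ HE came from 1 cell in GL58 and 2 cells in GL78, and 95.4% of them lay in the 2 cells of cluster 6. Without the cell with most reads of each gene the Wnt2 difference was -0.39, and Dkk2, at 2.98, was no longer called. Mesenchymal markers, which cluster 6 carries, summed to 95.4 CPM (3 of 8, with Lum, Dcn and Tbx18 at 0) and 31.1 CPM (1 of 8, with Lum and Tbx18 at 0) at E10.5 in GL58 and GL78, against 5.79 CPM (0 of 8) and 65.8 CPM (2 of 8), each with Col1a1, Pdgfrb, Lum, Dcn and Tbx18 at 0, at E11.5. Endothelial markers, at 3253 and 3432 CPM at E10.5 against 5331 and 5801 CPM at E11.5 (6 of 6 in each), also moved with stage. The part of these lists was not tested. Fzd4 was 103.53 CPM against 54.5 CPM in GL58 and 115.98 CPM against 45.3 CPM in GL78 (1.13 ± 0.30), higher in both batches but under 2-fold in GL58. Of 38 other pathway genes measured, Lgr4, a receptor of R-spondins, was called higher at E11.5 (1.67 ± 0.09). The median log2 difference was 0.27 over the 14 members and -0.01 over all measured genes.

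GFI1+ IAHC held less Sfrp2 at E11.5 than at E10.5 in batch GL78, the only batch with both stages. Sfrp2 was 71.2 CPM in 36 of 87 cells at E10.5 and 3.43 CPM in 6 of 89 cells at E11.5, a log2 difference of -4.02. Outside that batch the E10.5 cells of GL69 had 38.003 CPM, and the E11.5 cells of GL53 and GL58 had 5.90 CPM and 1.61 CPM. Both E10.5 values were thus above all 3 E11.5 values, and how many of all genes separate in this way was not counted. Sfrp2 was the only one of 9 measured members called lower (2.48% of genes). Fzd6 (15.9 CPM against 6.87 CPM, 1.10) and Sfrp1 (11.3 CPM against 4.17 CPM, 1.26) were called higher (8.79% of genes). Without the cell with most Sfrp1 reads only Fzd6 was called, and neither was called with 5 CPM added in place of 1 CPM.

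Among the 39 other pathway genes measured in that comparison, Celsr1 of the planar cell polarity branch (2.45), Lgr4 (1.74) and the transcriptional repressor Tcf7l1 (1.53) were called higher at E11.5, and the adhesion receptor Cd44 (-1.54) was called lower. The clusters that made up the gate also differed between stages: cluster 2 held 36.2% of the GFI1+ IAHC cells at E10.5 (42 cells) and 39 of 240 at E11.5. Hematopoietic marker sums in GL78 were 628 CPM and 444 CPM, with 7 of 7 markers at 10 CPM in both and none at 0, while macrophage markers were at 7.43 CPM (0 of 7, with C1qa, C1qb, C1qc and Adgre1 at 0) and 210.9 CPM (7 of 7), lymphatic and venous markers at 403.9 CPM and 1223 CPM (6 of 6) and endothelial markers at 2163 CPM and 3948 CPM (6 of 6). Their part in the Sfrp2 difference was not tested. The within-cluster values above showed the Sfrp2 difference also inside cluster 2. The median log2 difference was 0.37 over the 9 members and 0.07 over all measured genes.

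Within the IAHC at E11.5, Dkk2 and Fzd2 were lower in GFI1+ than in GFI1- cells. Dkk2 was 6.13 CPM against 22.3 CPM in GL53 and 0 CPM against 11.8 CPM in GL78 (-2.69 ± 1.39), and Fzd2 was 3.03 CPM against 48.8 CPM and 2.47 CPM against 9.12 CPM (-2.58 ± 1.47). Of 14 measured members these 2 were called lower (1.76% of genes) and 0 higher (0.493% of genes). In GL53 alone 10 members were lower, as were 682 of 10460 measured genes. Among the 10 members were Sfrp1 (13.97 CPM against 157.85 CPM), Sfrp2 (5.90 CPM against 53.1 CPM) and Wnt5a (2.21 CPM against 27.7 CPM). In GL78 those 3 stood at 11.3 CPM against 13.2 CPM, 3.43 CPM against 2.31 CPM and 2.56 CPM against 0 CPM.

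The GFI1- gate held the cells of cluster 6, and only in GL53. Mesenchymal markers summed to 2066 CPM (8 of 8) in E11.5 GFI1- IAHC of GL53 and to 38.2 CPM (1 of 8, with Lum, Dcn and Tbx18 at 0) in GL78, against 49.3 CPM (2 of 8, with Lum at 0) and 29.6 CPM (1 of 8, none at 0) in GFI1+ IAHC. Macrophage markers, at 338.1 CPM (6 of 7) and 730 CPM (7 of 7) in GFI1- IAHC of GL53 and GL78 against 34.2 CPM (2 of 7) and 210.9 CPM (7 of 7) in GFI1+ IAHC, and mesonephric and coelomic epithelium markers, at 236.3 CPM (7 of 10) and 238.9 CPM (5 of 10) against 70.3 CPM (3 of 10) and 39.3 CPM (1 of 10), differed in the same direction. Cluster 6 held 23.7% of the GFI1- cells and 94.5% of their Sfrp2 reads, 89.5% of their Sfrp1 reads, 88.3% of their Fzd2 reads and 70.4% of their Dkk2 reads. Without clusters 6 to 10 no member was called, and the log2 difference was -1.58 for Dkk2 and -0.33 for Fzd2. Of 44 other pathway genes measured, Prickle2 (-2.47 ± 1.63) and Nkd1 (-1.17 ± 0.08), an inhibitor of Dishevelled, were called lower. The median log2 difference was -0.55 over the 14 members and -0.02 over all measured genes.

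Clusters 4 and 2, which the study assigned to hemogenic endothelium and stem cells, were then set against each other within GL53 and GL78. GL53 held only E11.5 cells, while GL78 held cells of both stages in both clusters. The differences between these batches, and the SD over them, therefore mix batch with stage. Of 15 measured members 9 were called in either direction (24.3% of measured genes), 8 of them higher in cluster 4 (12.7% of genes). Sfrp1 was 229.5 CPM against 11.99 CPM in GL53 and 74.9 CPM against 1.41 CPM in GL78 (4.56 ± 0.59), Dkk2 was 365.7 CPM against 20.6 CPM and 112.3 CPM against 2.87 CPM (4.48 ± 0.55), and Fzd4 was 113.7 CPM against 5.80 CPM and 108.98 CPM against 6.30 CPM (4.00 ± 0.11). Among the called members Fzd4 had the smallest SD between the batches.

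Wnt11 (3.14 ± 0.86), Fzd6 (3.11 ± 1.38), Dkk1 (2.46 ± 0.83) and Ctnnb1 (1.27 ± 0.22) were also higher in cluster 4 in both batches. Dkk1 was not called without the cell with most reads (1.55). Fzd1 was called with a wide spread (3.25 ± 3.16), since it was at 0 CPM in cluster 2 of GL53 and at 9.25 CPM in GL78, and it was not called with TMM factors or with 5 CPM added. Tcf7 was the only member called lower (1217 of 10554 measured genes), at 23.6 CPM against 181.7 CPM in GL53 and 4.54 CPM against 20.6 CPM in GL78 (-2.43 ± 0.66). The 181.7 CPM came from 6 of 28 cells, and 1 cell held 75.4% of the reads. Tcf7 was still called without the cell with most reads. By detection it was not lower in cluster 4. It was read in 21 of 76 cells there (median 29.7 CPM) and in 21 cells of the larger cluster 2 (median 23.3 CPM). Sfrp2 was lower in both batches but under 2-fold in GL53 (-1.66 ± 1.28), at 8.76 CPM against 15.5 CPM there and 20.5 CPM against 125.9 CPM in GL78. Over the 15 members the median log2 difference was 1.74, and it was -0.15 over all measured genes.

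Of 40 other pathway genes measured, 10 were higher and 3 lower in cluster 4 than in cluster 2. Of all measured genes 12.7% were higher, and 1217 of 10554 were lower. The largest differences were found for Prickle2 (5.76 ± 1.21), Vangl1 (3.75 ± 0.74), the repressor Tcf7l1 (3.73 ± 0.63) and Ror2, a receptor of Wnt5a (3.29 ± 2.61). Wls, which carries Wnt ligands to the cell surface, was also higher (1.55 ± 0.02). Lower were Rnf43 (-3.95 ± 0.14), which clears Frizzled receptors, the R-spondin receptor Lgr4 (-2.59 ± 0.71) and Myc (-2.36 ± 0.51).

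**Figure D5:**
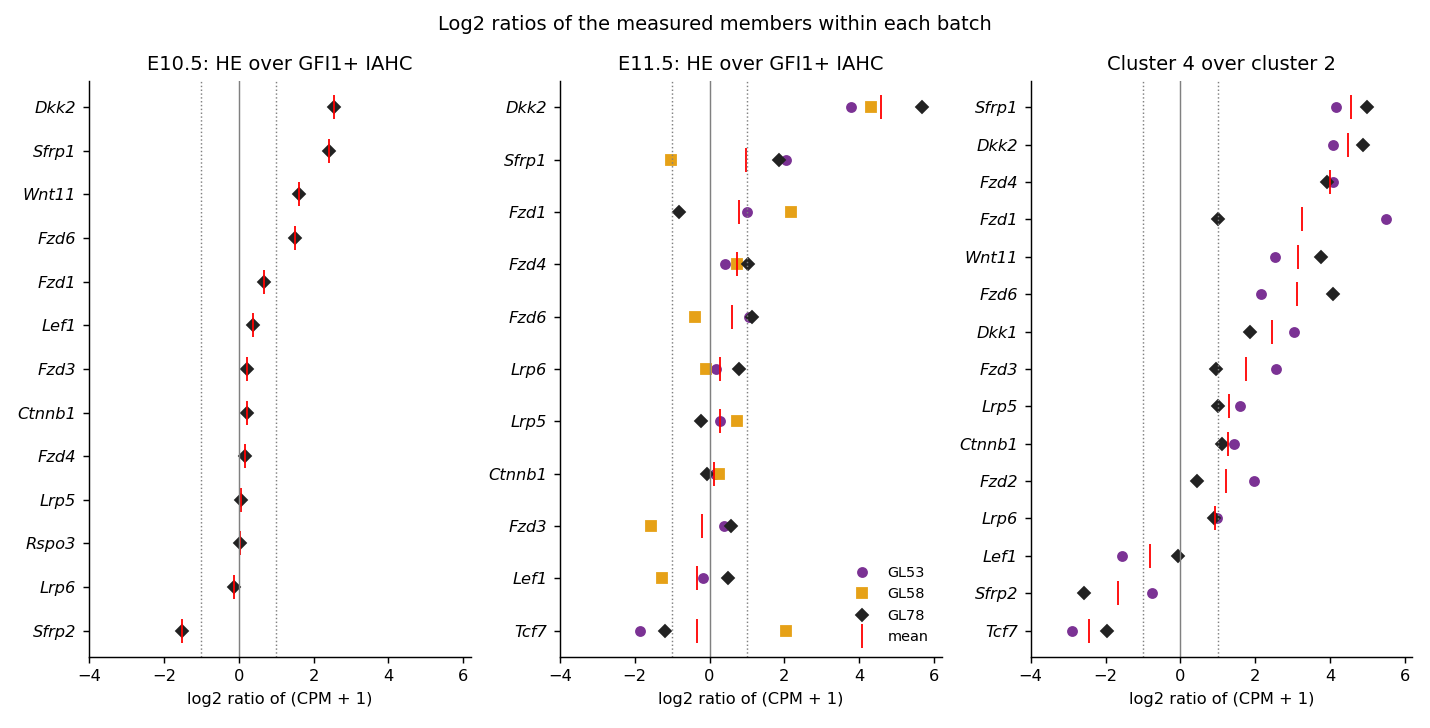
Log2 ratio of each measured member in each batch (points) for GFI1+ HE over GFI1+ IAHC at E11.5 and at E10.5 and for cluster 4 over cluster 2, with the mean over batches as a red tick and the 2-fold limits as dotted lines. Dkk2 lies beyond the upper limit in every batch of all 3 comparisons, with means of 4.59, 2.54 and 4.48.

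Set against clusters 0, 1, 3 and 5, cluster 2 held more Tcf7 and Sfrp2 and less Fzd4 and Lrp5. Stage was not balanced in this contrast. E10.5 cells made up a larger part of cluster 2 than of clusters 0, 1 and 3, though not of cluster 5, and GL53 held only E11.5 cells. The differences and their SD therefore mix cluster with stage. Of 10 measured members 3 were higher (10.8% of genes): Tcf7 (3.82 ± 2.15), Sfrp2 (3.75 ± 2.03) and Dkk2 (2.03 ± 0.46). The Dkk2 difference was 0.35 without the cell with most reads, since Dkk2 was read in 3 cells (2.75%) of cluster 2. Fzd4 (-3.80 ± 0.76) and Lrp5 (-1.49 ± 0.24) were lower (9.74% of genes), and Ctnnb1 stood at -0.996 ± 0.36. Scaling with TMM factors moved the median of all genes by -0.28 in this comparison and left both members called lower and all 3 called higher, with Ctnnb1 added to the lower ones. The median log2 difference was -0.88 over the 10 members and 0.14 over all measured genes.

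Of 38 other pathway genes measured in this contrast, 3 were higher in cluster 2 (Cd44, 5.25 ± 0.67; Rnf43, 3.67 ± 0.22; Bcl9l, a partner of beta-catenin, 1.27 ± 0.12). The 6 lower ones were Tcf7l1 (-3.98 ± 0.08), the cyclin gene Ccnd1 (-3.55 ± 0.74), Vangl1 (-2.47 ± 1.17), Adgra2 (-2.12 ± 1.44), Ctnnbip1 (-1.88 ± 0.30) and Tcf7l2 (-1.65 ± 0.39). Of all measured genes 10.8% were higher and 9.74% lower in this contrast. Rnf43 RNA was higher in the cluster in which Fzd4 and Lrp5 RNA was lower, and a link between them was not tested. Hematopoietic markers summed to 2079 CPM in cluster 2 and endothelial markers to 763 CPM, and their part in these differences was not tested.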

How the data were processed

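Smart-Seq2 libraries of single sorted cells were aligned to mm10 with STAR 2.7.3 and counted per gene with HTSeq 0.9.1 by the authors, per the submitters' processing notes, and the raw counts were deposited. Which annotation was used, whether counting was stranded and how duplicates were treated is not given in the sources used here. Cells were kept by the authors on genes, counts and mitochondrial share and clustered in Scanpy 1.4.4 (Louvain resolution 0.5, no batch correction). Their cell filter and clusters were taken from the deposited annotation, and their normalised table was not used. Each library is 1 sorted well, so no doublet caller was run.

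The 92 spike-in controls had 0 counts. Symbols were matched for 45143 genes, which left 0.0682% of counts without one. Counts were summed per group and batch in Python 3.11.15 and scaled to CPM, with ratios on log2(CPM + 1). The calculation recovered large changes planted in simulated counts of the first comparison. Those counts held counting error only, without spread between cells or batches, so they do not bear on genes carried by few cells. TMM factors came from edgeR 4.0.16, and no count test was run, since cells are not replicates. Promoter windows were RefSeq sequences (GRCm38.p6) and were matched for 33 of 50 members. Members given in full reached 10 CPM in a cluster or group within a batch, those of 1 to 10 CPM are given by range with at most 6 examples, and of the other pathway genes those called were named, at most 6 per comparison. Shares of cells are given at full depth and as computed at 100000 counts, which every kept cell exceeded. Smart-Seq2 reads carry no molecular identifiers, so intervals cover counting error only. The members and lists were chosen with earlier results of these data known. Alternatives covered pseudocount, floor, scaling, depth, cell filter, batches and single cells.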

Additional observations from a re-analysis of the deposited data

Results flagged for a closer look

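Cells that entered no comparison held some co-receptor and receptor reads above every group and batch that was used. In the 3 kept E10.5 GFI1- IAHC cells Lrp5 stood at 84.2 CPM, with reads in 3 of 3 cells and 67.9% of them in 1 cell. Fzd5 stood at 27.5 CPM in the same cells, all from 1 cell. In the 85 cells that the authors had left out, Lrp6 stood at 106.04 CPM and Lrp5 at 27.5 CPM, as summed counts. Lrp6 was at 32.2 to 69.95 CPM and Lrp5 at 11.54 to 20.8 CPM in the groups and batches used. These values were not tested.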

How the results depend on the processing

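None of the 28 called differences changed sign under an alternative, but 23 of the 58 measured differences that were not called did. A call needs the same direction in every batch, so a left-out batch, another floor or another pseudocount could not change its sign. Without GL53 and without GL78, Tcf7 was lower (-1.09) and higher (1.71) in GFI1+ than in GFI1- IAHC at E11.5. Between the stages of GFI1+ HE, Sfrp1 was higher at E11.5 without clusters 6 to 10 (2.31) and lower without GL78 (-2.698). Among counts of called members, 72.5% of recomputed counts stayed within 1.5 times the reported ones. Of the recomputed differences and levels of single members 86.8% moved by less than their spread. A floor does not enter a log2 difference, and leaving out 1 batch cannot move a mean over batches by its SD. Differences under these settings, and with at least 25 cells per side, therefore stayed within their spread by construction. Members higher in E11.5 GFI1+ HE than IAHC were 1 as reported, 2 with a floor of 2 CPM or none, 4 with batches pooled or at least 25 cells per side, and 1 to 4 with a batch left out; lower ones were 0 as reported, 1 with either floor or with at least 25 cells per side, and 0 to 1 with a batch left out. At E10.5 the lower member became 2 with a floor of 2 CPM and 3 without a floor. For GFI1+ against GFI1- IAHC, higher members were 0 to 1 with a batch left out, and the 2 lower ones became 1 with a pseudocount of 5 CPM, 0 without clusters 6 to 10, 6 with batches pooled and 2 to 10 with a batch left out (10 without GL78). For GFI1+ HE between stages, the 1 higher member became 3 with either floor, 2 without clusters 6 to 10, 0 without the top cell of each gene, 4 pooled, 3 with 25 cells per side and 3 to 4 with a batch left out. The 2 lower ones became 5 with either floor, 1 without clusters 6 to 10 or the top cell, and 3 to 4 with a batch left out. For GFI1+ IAHC between stages, the 2 higher members became 0 with a pseudocount of 5 CPM, 4 with a floor of 2 CPM, 5 without a floor and 1 without the top cell, and the 1 lower became 6 with a floor of 2 CPM and 8 without. For cluster 4 against cluster 2, 8 higher members became 13 pooled, and 1 lower became 2 with either floor, without the top cell or with a batch left out (2 to 2), and 3 pooled. For cluster 2 against clusters 0, 1, 3 and 5, 3 higher became 6 with either floor and 3 to 5 with a batch left out, and 2 lower became 5 with a floor of 2 CPM, 6 without, 4 pooled and 4 to 4 with a batch left out. By share of cells with 1 read or 5 reads, cluster 2 led for 0 members, cluster 8 for 7 and cluster 10 for 0, and cluster 10 led for 0 without the top cell. The causes were not tested beyond the construction of each alternative. Expected counts at 100000 per cell equal the mean of single-cell CPM by construction. No paired analysis was possible because each replicate number names a single cell and pairs no cells across groups.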
